A study of Homo sapiens with 48 samples.

Results

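DNA replication is prepared in the G1 phase, when the origin recognition complex (ORC) marks origins. With CDC6 and CDT1, ORC loads the MCM2-7 helicase onto DNA, a step called licensing that geminin (GMNN) blocks outside G1. In S phase, CDC45 and GINS join the loaded helicase, and DNA polymerases, the sliding clamp PCNA with its loader RFC, the single-strand binding protein RPA and the Okazaki fragment enzymes FEN1 and LIG1 copy both strands at the fork. Many of these genes are transcribed by E2F factors at the entry into S phase, and PARP inhibitors such as Talazoparib are known to trap PARP1 on DNA and to disturb replication forks. The expression of 49 genes of this machinery, listed by symbol for their textbook roles, is described here in PSN1 cells. All 49 were among the 20241 genes of the deposited table, and all 49 were among the 12471 genes tested.

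PSN1 is a human pancreatic cancer (PDAC) cell line, and the labels give its genotype as WT. RNAseq was compared among 3 groups. Parental PSN1 cells received no drug (time given as Day 0). TalaR-M cells acquired resistance to Talazoparib and were kept in the drug (50 nM, 4 months). TalaR-DF cells came from the resistant cells by culture without the drug for 4 weeks (time also given as Day 0). By then, the paper reports, PSN1 cells had regained nearly the sensitivity of parental cells. TalaR-DF cells are therefore called resistant below by origin only. Each group had 3 replicates. The resistant cells came from selection under rising drug concentrations, and a comparison with parental cells therefore holds selection and long culture together with any effect of the drug. The labels do not say whether replicates were separate cultures, so p-values measure the spread between these libraries, which may be technical. Values are log2 CPM (CPM being the reads of a gene scaled to a common library size), and a difference of 1 is a 2-fold difference. A gene is said to have risen or fallen where the Benjamini-Hochberg adjusted p from limma, taken over all 12471 genes, was under 0.05.

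The libraries held between 8387755 and 14973847 reads on genes above 1 CPM, and no replication gene was at 0 in any library, the fewest reads being 19 for GINS4 in TalaR-M replicate 2. That library stood apart. Over the 12471 genes its Pearson correlation with the other TalaR-M libraries was 0.857 and 0.858, against 0.995 between those 2 and at least 0.995 within the other groups. Its difference from the mean of both other TalaR-M libraries followed transcript length, with a median of 0.40 log2 over the 12 shortest replication genes (up to 1924 bases) and of -1.14 over the 12 longest (4288 bases or more). As a description, the correlation of this difference with log2 length was -0.56 over the 49 genes, which share that library. Its largest size was 2.96, for GINS4, and in no other library did a replication gene lie more than 0.42 from the mean of the other replicates of its group, TalaR-M replicate 2 being left out of that mean. Results are therefore given with all 9 libraries and also without TalaR-M replicate 2. Each replication gene that passed a comparison with all 9 libraries passed it without that library too. The epithelial markers KRT7, KRT8, KRT18, KRT19 and EPCAM were at 4.80 log2 CPM or more in every library, whereas CDH1, the gene of E-cadherin, was at 0 in all 9. The epithelial list summed to between 1080 and 1130 CPM in parental cells, between 1700 and 5770 CPM in TalaR-M cells and between 949 and 1090 CPM in TalaR-DF cells. Of the leukocyte markers, CD3E and LYZ were at 0 in all libraries, and PTPRC lay between 0 and 1.79 log2 CPM, the list summing to 0 CPM in parental cells and to at most 3.45 CPM in TalaR-M and 1.04 CPM in TalaR-DF cells. VWF of endothelial cells was at 0 throughout. The 4 fibroblast genes (PDGFRA, PDGFRB, DCN and LUM) summed to between 176 and 185 CPM in parental cells, between 23.8 and 50.8 CPM in TalaR-M cells and between 73.9 and 81.7 CPM in TalaR-DF cells, none of them being at 0 throughout. The 3 endothelial genes summed to between 14.4 and 15.1 CPM in parental cells, between 4.02 and 5.91 CPM in TalaR-M cells and between 2.92 and 3.24 CPM in TalaR-DF cells. The part of these lists in the results below was not tested.

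**Figure D1:**
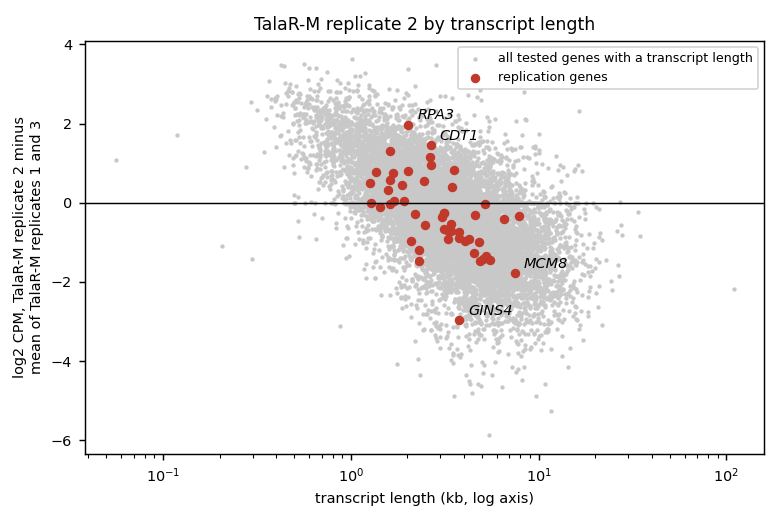
Difference of TalaR-M replicate 2 from the average of replicates 1 and 3 (vertical axis, log2 CPM) against transcript length (horizontal axis, kb, log scale) for the tested genes with a known length (grey) and the 49 replication genes (red). Short transcripts lie mostly above 0 and long ones below it, with GINS4 at -2.96.

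Of the 49 replication genes, 17 rose in each resistant population against parental cells with all 9 libraries (36 in TalaR-M and 45 in TalaR-DF cells without TalaR-M replicate 2), and none fell against parental cells with either set of libraries. In TalaR-DF cells the log2 fold change was above 0 for all 49 genes, with a median of 0.59 and a range from 0.03 (POLE) to 1.96 (GINS2), while the median over all tested genes was 0.01. In TalaR-M cells it was above 0 for 34 genes, with a median of 0.39 against -0.09 for all genes, and without TalaR-M replicate 2 it was above 0 for 42 genes, with a median of 0.45 against 0.01. The leading genes were GINS2, a subunit of the GINS complex, the transcription factors E2F2 and E2F1, POLA2 of DNA polymerase alpha and ORC6. Because these are bulk samples, a larger share of cells in S phase and more of these mRNAs per cell cannot be told apart. Both comparisons use the same 3 parental libraries, so their values are given side by side and are not independent of each other.

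**Figure D2:**
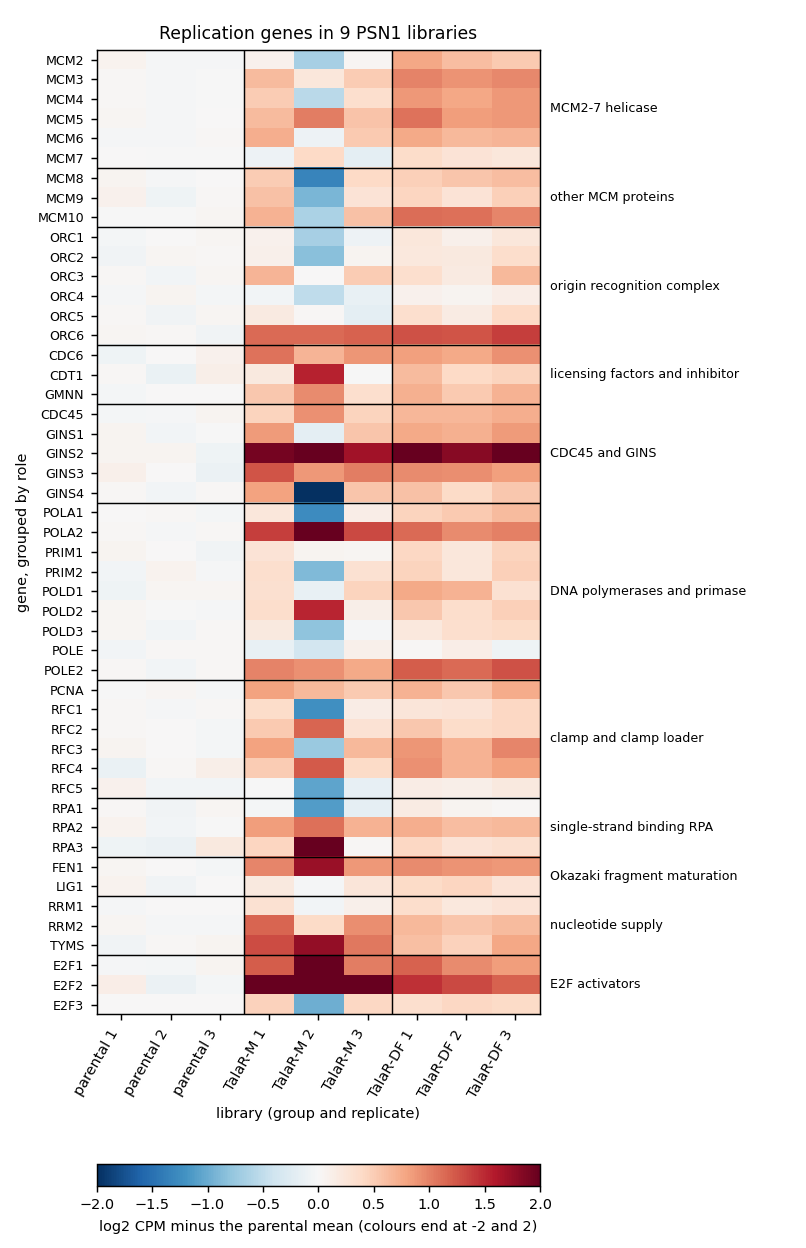
Log2 CPM of each of the 49 replication genes in the 9 libraries, shown as the difference from the parental mean (red above, blue below, colours ending at -2 and 2) and grouped by role. The 3 TalaR-DF columns are red for nearly every gene, GINS2 and E2F2 are dark red in all resistant columns, and TalaR-M replicate 2 alone has rows that are blue where replicates 1 and 3 are red.

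In the comparison of TalaR-M with parental cells, 17 of the 49 genes (34.7%) rose, whereas 10.3% of all tested genes did. None of the 49 fell, whereas 13.2% of all tested genes fell. At an unadjusted p under 0.05 from limma, 19 replication genes were higher and 0 lower, beside 2073 and 2616 of all 12471 genes. With at least a 2-fold change, 8 of 49 rose against 5.53% of all genes (GINS2, E2F2, POLA2, E2F1, TYMS, FEN1, ORC6 and GINS3). Without TalaR-M replicate 2, 36 of 49 (73.5%) rose against 30.2% of all genes and 0 fell against 30.0% of all genes. There, 1 replication gene was lower at an unadjusted p under 0.05 from limma, beside 3970 of all 12471 genes. The lowest TalaR-M library lay above the highest parental library for 20 genes (40.8%), and for 20.9% of all genes.

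In the comparison of TalaR-DF with parental cells, 17 of 49 genes rose against 6.77% of all tested genes, and 0 fell against 11.8% of all genes. At an unadjusted p under 0.05 from limma, 27 replication genes were higher and 0 lower, beside 1590 and 2079 of all 12471 genes. At 2-fold or more, 5 genes rose (GINS2, E2F2, ORC6, POLE2 and POLA2) against 2.25% of all genes. The same model without TalaR-M replicate 2, which contributes to this comparison only through the shared estimate of the spread, had 45 of 49 (91.8%) rising against 32.5% of all genes, and 0 falling against 30.4% of all genes. ORC4, POLE, RFC5 and RPA1 were the 4 that did not pass. All 3 TalaR-DF libraries lay above all 3 parental libraries for 47 genes (95.9%) and for 35.3% of all genes. The exceptions were POLE and RPA1. The count of 17 depended on which libraries were in the fit. Leaving out any 1 of the parental or TalaR-DF libraries left between 9 and 11 genes, and leaving out TalaR-M replicate 1 or 3 gave 21 and 17.

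**Figure D3:**
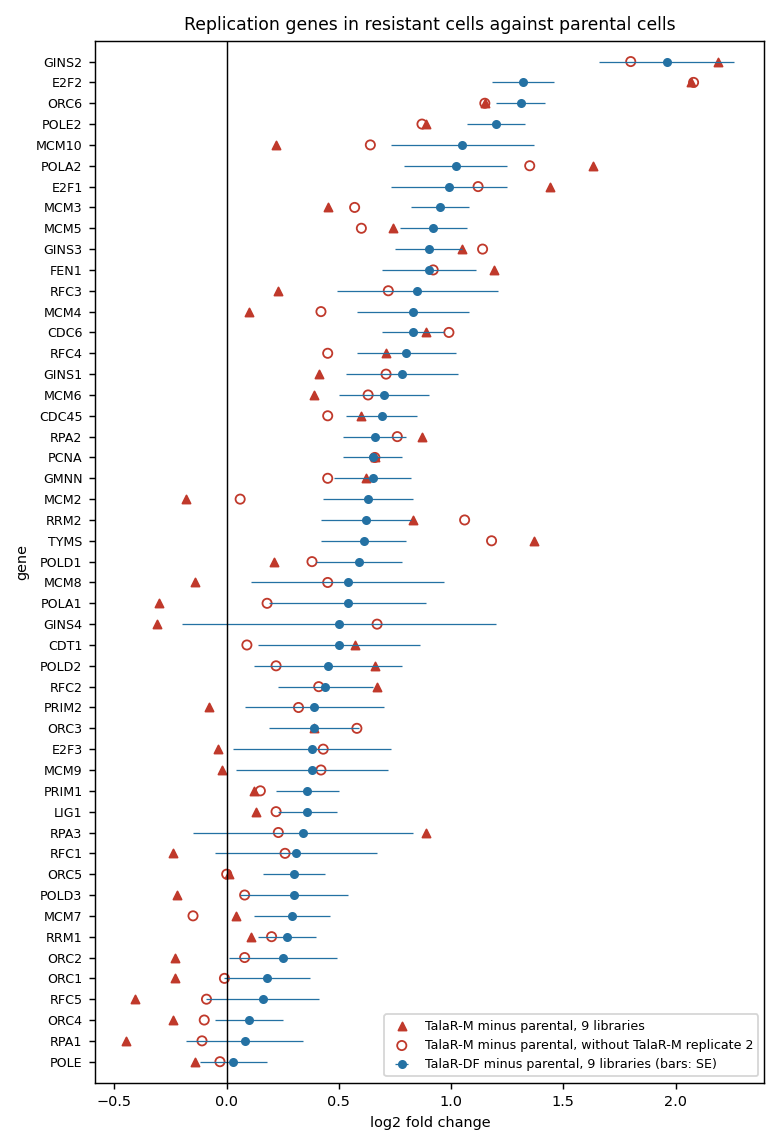
Log2 fold change (horizontal axis) of each of the 49 replication genes (vertical axis, ordered by TalaR-DF) in TalaR-DF against parental cells (blue, bars are the SE) and in TalaR-M against parental cells with all 9 libraries (red triangles) and without TalaR-M replicate 2 (open red circles). All 49 blue points lie above 0, from 0.03 for POLE to 1.96 for GINS2, and GINS2 and E2F2 have the highest values in both populations.

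Because E2F factors are themselves among the genes that rose, proximal promoters were searched for E2F sites. The 6 shown were chosen for holding an exact match, from the genes with the largest changes, so ORC6 and FEN1, which held none, are not among them. RefSeq promoter windows (GRCh38.p14, from 250 bases before to 50 bases after the transcription start) were matched for 43 of the 49 genes, not for MCM4, MCM5, GINS4, POLD3, RPA2 and RPA3. They were searched on both strands for the 8-base spellings TTTCCCGC, TTTGGCGC, TTTCGCGC and TTTGCCGC of the E2F consensus. A gene with several windows counted once, if any of them matched. An exact match was present for 23 of the 43 genes (53.5%), against 6.6% of 9556 tested genes and 5.4% of 15843 protein-coding genes in all. The CCAAT box (CCAAT) was present for 62.8% of the 43 genes, against 43.2% of the tested genes. The CHR element (TTTGAA), known from promoters of mitotic genes, was present for 4.7% against 13.8%. A match describes the letters only and does not show binding. The sequences below run 5′ to 3′ on the strand of the gene, from 100 bases before the start, and capitals mark the E2F matches.
GINS2: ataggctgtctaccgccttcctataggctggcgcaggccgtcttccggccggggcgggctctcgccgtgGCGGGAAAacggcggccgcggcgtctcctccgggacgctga
E2F2: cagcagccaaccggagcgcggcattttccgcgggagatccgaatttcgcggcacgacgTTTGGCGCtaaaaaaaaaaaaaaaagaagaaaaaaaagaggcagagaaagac
POLA2: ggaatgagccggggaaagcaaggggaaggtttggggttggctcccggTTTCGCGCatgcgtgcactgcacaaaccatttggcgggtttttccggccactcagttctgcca
E2F1: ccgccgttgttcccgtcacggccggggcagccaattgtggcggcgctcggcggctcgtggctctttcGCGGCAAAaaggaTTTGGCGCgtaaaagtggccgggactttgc
TYMS: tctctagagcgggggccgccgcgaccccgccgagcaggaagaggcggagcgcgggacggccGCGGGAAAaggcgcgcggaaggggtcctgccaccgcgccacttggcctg
POLE2: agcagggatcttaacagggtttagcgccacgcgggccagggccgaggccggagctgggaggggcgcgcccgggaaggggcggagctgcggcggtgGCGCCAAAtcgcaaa

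These stretches lie at chr16:85688945-85689054 (GINS2, minus strand), chr1:23531224-23531333 (E2F2, minus strand), chr11:65261862-65261971 (POLA2, plus strand), chr20:33686376-33686485 (E2F1, minus strand), chr18:657553-657662 (TYMS, plus strand) and chr14:49688205-49688314 (POLE2, minus strand). The first base of the match lay 31 bases before the start in GINS2, 42 in E2F2, 53 in POLA2, 39 in TYMS and 5 in POLE2. E2F1 held 2 matches, 33 and 20 bases before its start. Over the 23 genes with a match the median log2 fold change was 0.45 in TalaR-M against parental cells (0.63 without TalaR-M replicate 2) and 0.65 in TalaR-DF against parental cells. Over the 20 genes without one it was 0.11 (0.29) and 0.39. Genes without a match also included ones that rose, such as ORC6, FEN1 and CDC45, and POLE and CDT1, which had a match, did not pass in either comparison with all 9 libraries.

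Of the E2F activators, E2F1 and E2F2 rose in both comparisons with parental cells. E2F2 was at 1.74, 1.49 and 1.56 log2 CPM in the parental libraries, at 3.71, 3.65 and 3.64 in the TalaR-M libraries and at 3.06, 2.92 and 2.78 in the TalaR-DF libraries. The 3 groups did not overlap, and TalaR-M replicate 2 lay with its group. E2F2 rose 4.20-fold in TalaR-M cells (log2 fold change 2.07 ± 0.14, SE, adjusted p = 2.07e-05 from limma) and 2.50-fold in TalaR-DF cells (1.32 ± 0.14, adjusted p = 0.00036), and was higher in TalaR-M than in TalaR-DF cells by 0.75 (adjusted p = 0.0118). Its parental libraries held between 38 and 48 reads of it, so that the prior count in the values makes these folds slightly low. E2F1 was at 4.98, 4.96 and 5.05 in parental cells, 6.21, 7.07 and 6.03 in TalaR-M cells and 6.18, 5.94 and 5.84 in TalaR-DF cells. It rose by 1.44 ± 0.26 in TalaR-M cells (adjusted p = 0.00494 from limma; 1.12 without TalaR-M replicate 2, its highest library) and by 0.99 ± 0.26 in TalaR-DF cells (adjusted p = 0.0313). E2F3 did not pass with all 9 libraries, and it rose in both populations without TalaR-M replicate 2 (0.43 and 0.38, adjusted p = 0.000171 and 0.000182 from limma). Per kb of transcript, E2F2 remained the lowest of the 3, at -0.78 log2 CPM per kb in parental cells, 1.30 in TalaR-M cells without replicate 2 and 0.54 in TalaR-DF cells, against 3.57, 4.69 and 4.56 for E2F1 and 2.82, 3.25 and 3.20 for E2F3.

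**Figure D4:**
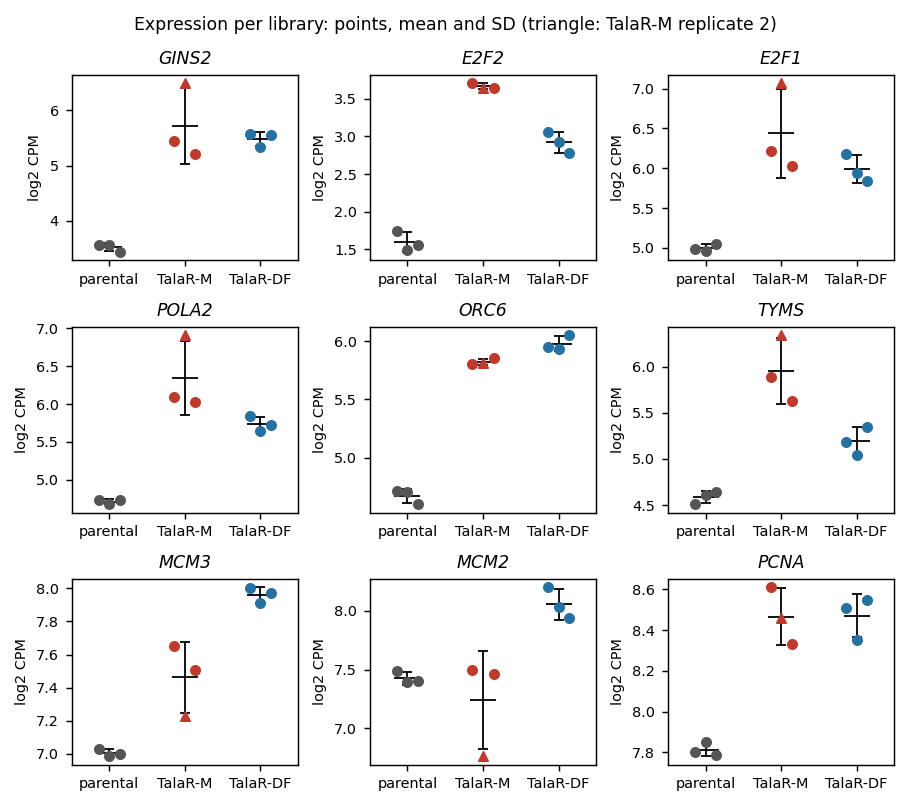
Log2 CPM (vertical axes) of 9 replication genes in parental, TalaR-M and TalaR-DF cells, with 1 point per library, the mean as a dash and the SD as bars (n = 3), and TalaR-M replicate 2 as a triangle. For GINS2, E2F2, E2F1, POLA2, ORC6, TYMS, MCM3 and PCNA every resistant library lies above every parental one, and for MCM2 only the TalaR-DF libraries all do.

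Of the helicase activators, which turn the loaded MCM ring into an unwinding machine, CDC45, GINS2 and GINS3 rose in both comparisons with parental cells, and all 5 genes rose in both without TalaR-M replicate 2. GINS2 was at 3.57, 3.57 and 3.44 log2 CPM in the parental libraries, at 5.44, 6.49 and 5.20 in the TalaR-M libraries and at 5.56, 5.34 and 5.55 in the TalaR-DF libraries. All resistant libraries lay far above the parental ones, and TalaR-M replicate 2 was the highest. GINS2 rose 4.55-fold in TalaR-M cells (2.19 ± 0.30 on the log2 scale, adjusted p = 0.00134 from limma; 1.80 ± 0.10 without TalaR-M replicate 2) and 3.89-fold in TalaR-DF cells (1.96 ± 0.30, adjusted p = 0.0028). GINS3 was at 3.99, 3.89 and 3.78 in parental cells, 5.15, 4.75 and 4.92 in TalaR-M cells and 4.84, 4.82 and 4.71 in TalaR-DF cells. It rose by 1.05 ± 0.15 and 0.90 ± 0.15 (adjusted p = 0.00153 and 0.00404 from limma), the first being 1.14 without TalaR-M replicate 2. CDC45 was at 4.55, 4.57 and 4.64, then 5.04, 5.50 and 5.04, then 5.26, 5.25 and 5.32 in the same order of groups, and rose by 0.60 (0.45 without TalaR-M replicate 2) and 0.69 (adjusted p = 0.0257 and 0.0168 from limma). GINS1 and GINS4 passed without TalaR-M replicate 2 only, with 0.71 and 0.67 in TalaR-M cells and 0.78 and 0.50 in TalaR-DF cells. The 4 GINS subunits form a complex with 1 copy of each. Per kb, GINS2 mRNA was below those of GINS1 and GINS3 in parental cells (2.13 log2 CPM per kb, against 3.67 and 2.75), and it was above that of GINS3 in TalaR-DF cells (4.09 against 3.65, with GINS1 at 4.45), GINS4 being the lowest in each group.

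Of the 6 subunits of the MCM2-7 helicase, MCM3 and MCM5 rose in TalaR-M cells and MCM3, MCM5 and MCM6 in TalaR-DF cells, where the libraries of all 6 lay above the parental ones. MCM2 and MCM3 were lower in TalaR-M than in TalaR-DF cells. MCM3 was at 7.03, 6.99 and 7.0 log2 CPM in parental cells, 7.65, 7.23 and 7.51 in TalaR-M cells and 8.0, 7.91 and 7.97 in TalaR-DF cells. The groups did not overlap. MCM3 rose by 0.45 ± 0.13 in TalaR-M cells (adjusted p = 0.0417 from limma; 0.57 without TalaR-M replicate 2) and by 0.95 ± 0.13 in TalaR-DF cells (adjusted p = 0.00164), and was lower in TalaR-M than in TalaR-DF cells by a log2 difference of -0.50 (adjusted p = 0.0462). MCM2 was at 7.49, 7.39 and 7.40 in parental cells, 7.50, 6.76 and 7.46 in TalaR-M cells and 8.20, 8.03 and 7.94 in TalaR-DF cells. TalaR-M replicates 1 and 3 lay at the level of the parental libraries and replicate 2 below them. MCM2 did not pass against parental cells with all 9 libraries, where its log2 fold change was -0.18 in TalaR-M cells (0.06 without replicate 2) and 0.63 ± 0.20 in TalaR-DF cells (adjusted p = 0.0702 from limma; adjusted p = 9.13e-06 without TalaR-M replicate 2). It was lower in TalaR-M than in TalaR-DF cells (-0.81, adjusted p = 0.0378 from limma; -0.57, adjusted p = 9.03e-05 without replicate 2). MCM5 rose by 0.74 and 0.92 (adjusted p = 0.00905 and 0.00371 from limma). Without TalaR-M replicate 2, MCM3, MCM4, MCM5 and MCM6 rose in TalaR-M cells and all 6 in TalaR-DF cells, from 0.29 (MCM7) to 0.95 (MCM3), and MCM2, MCM3, MCM4, MCM5 and MCM7 were lower in TalaR-M than in TalaR-DF cells, by between -0.32 and -0.57. Per kb, MCM7 was the highest subunit in each group (7.37 log2 CPM per kb in parental cells) and MCM5 the lowest (4.45).

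MCM10, which is needed for the start of unwinding, was at 4.58, 4.58 and 4.63 log2 CPM in parental cells, 5.29, 3.96 and 5.18 in TalaR-M cells and 5.70, 5.69 and 5.56 in TalaR-DF cells. TalaR-M replicate 2 lay below the parental libraries and the other resistant libraries above them. Its log2 fold change was 1.05 ± 0.32 in TalaR-DF cells (adjusted p = 0.0553 from limma; adjusted p = 1.46e-07 without TalaR-M replicate 2) and 0.22 ± 0.32 in TalaR-M cells (0.64 without replicate 2, adjusted p = 2.47e-05). MCM8 and MCM9, which act together in homologous recombination, passed in neither comparison with all 9 libraries and rose in both without TalaR-M replicate 2, by 0.45 and 0.42 in TalaR-M cells and by 0.54 and 0.38 in TalaR-DF cells.

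Within the origin recognition complex, ORC6, the subunit least tightly bound to the rest, was the exception. ORC6 was at 4.71, 4.70 and 4.60 log2 CPM in parental cells, 5.80, 5.81 and 5.85 in TalaR-M cells and 5.95, 5.93 and 6.05 in TalaR-DF cells, with little spread in any group. It rose 2.22-fold (1.15 ± 0.11, adjusted p = 0.000172 from limma; 1.15 also without TalaR-M replicate 2) and 2.47-fold (1.31 ± 0.11, adjusted p = 0.000103). ORC1, the large ATPase subunit, was at 5.57, 5.62 and 5.65 in parental cells, 5.70, 4.95 and 5.51 in TalaR-M cells and 5.84, 5.71 and 5.83 in TalaR-DF cells, and did not pass with all 9 libraries (-0.23 and 0.18). Among ORC2, ORC3, ORC4 and ORC5, which also did not pass, the log2 fold changes lay between -0.24 and 0.39 in TalaR-M cells and between 0.10 and 0.39 in TalaR-DF cells. Without TalaR-M replicate 2, ORC3 rose in TalaR-M cells (0.58, adjusted p = 0.0015 from limma), and ORC1, ORC2, ORC3 and ORC5 rose in TalaR-DF cells. Per kb, ORC6 stood at 3.98 log2 CPM per kb in parental cells, close to ORC1 at 3.97, and at 5.29 against 4.15 in TalaR-DF cells.

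Of the loading factors, CDC6, an ATPase that loads the helicase with ORC, was at 5.27, 5.37 and 5.44 log2 CPM in parental cells, 6.45, 6.04 and 6.25 in TalaR-M cells and 6.18, 6.11 and 6.28 in TalaR-DF cells. It rose by 0.89 ± 0.14 in TalaR-M (0.99 without replicate 2) and by 0.83 ± 0.14 in TalaR-DF cells (adjusted p = 0.00265 and 0.00428 from limma). Geminin, the inhibitor of CDT1, rose with it. GMNN was at 4.51, 4.56 and 4.56, then 5.09, 5.50 and 4.89, then 5.26, 5.08 and 5.24 in the same order, with log2 fold changes of 0.62 (0.45 without TalaR-M replicate 2) and 0.65 (adjusted p = 0.0345 and 0.0336 from limma). CDT1 was at 5.40, 5.23 and 5.49 in parental cells, 5.56, 6.91 and 5.36 in TalaR-M cells and 6.01, 5.77 and 5.82 in TalaR-DF cells. Only TalaR-M replicate 2 set it high in TalaR-M cells, where its log2 fold change was 0.57 with that library and 0.09 without it (adjusted p = 0.278 and 0.477 from limma). In TalaR-DF cells it was 0.50 (adjusted p = 0.447; adjusted p = 0.000506 without TalaR-M replicate 2).

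Among the polymerases, the second subunits of DNA polymerases alpha and epsilon rose and their catalytic subunits did not pass with all 9 libraries. POLA2 was at 4.73, 4.68 and 4.73 log2 CPM in parental cells, 6.10, 6.91 and 6.03 in TalaR-M cells and 5.84, 5.65 and 5.72 in TalaR-DF cells. It rose 3.10-fold (1.63 ± 0.23, adjusted p = 0.00134 from limma; 1.35 without TalaR-M replicate 2) and 2.03-fold (1.02 ± 0.23, adjusted p = 0.0158). POLE2 was at 3.72, 3.64 and 3.71, then 4.68, 4.61 and 4.44, then 4.90, 4.83 and 4.96 in the same order, and rose by 0.89 ± 0.13 (0.87 without TalaR-M replicate 2) and 1.20 ± 0.13 (adjusted p = 0.00176 and 0.000394 from limma). The catalytic subunit POLE had log2 fold changes of -0.14 ± 0.15 and 0.03 ± 0.15, and POLA1 of -0.30 ± 0.35 and 0.54 ± 0.35. Without TalaR-M replicate 2, POLA1 rose in both populations (0.18 and 0.54, adjusted p = 0.0496 and 2.21e-05 from limma), and POLE in neither (adjusted p = 0.816 and 0.76). A difference between the subunits of a polymerase was not tested as such. The primase genes PRIM1 and PRIM2 and the polymerase delta genes POLD1, POLD2 and POLD3 did not pass with all 9 libraries. Without TalaR-M replicate 2, PRIM2, POLD1 and POLD2 rose in TalaR-M cells (0.22 to 0.38) and all 5 rose in TalaR-DF cells (0.30 to 0.59).

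PCNA, the clamp that holds polymerases on DNA, was at 7.80, 7.85 and 7.79 log2 CPM in parental cells, 8.61, 8.46 and 8.33 in TalaR-M cells and 8.51, 8.35 and 8.55 in TalaR-DF cells. It rose 1.58-fold (the same without TalaR-M replicate 2) and 1.57-fold (adjusted p = 0.00652 and 0.00795 from limma), and per kb it was the highest of the 49 genes in each group (7.46, 8.12 and 8.11 log2 CPM per kb, TalaR-M without replicate 2). Of the clamp loader genes, RFC4 rose in TalaR-DF cells with all 9 libraries (0.80, adjusted p = 0.0394 from limma), and RFC1, RFC2, RFC3 and RFC4 rose in both populations without TalaR-M replicate 2, but not RFC5. RFC3 was at 5.53, 5.48 and 5.44 in parental cells, 6.28, 4.74 and 6.13 in TalaR-M cells and 6.36, 6.18 and 6.45 in TalaR-DF cells. Its log2 fold change was 0.23 in TalaR-M cells (0.72 without replicate 2) and 0.85 in TalaR-DF cells.

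RPA binds the single strands exposed at forks. RPA2 was at 5.13, 5.01 and 5.05 log2 CPM in parental cells, 5.89, 6.16 and 5.76 in TalaR-M cells and 5.79, 5.67 and 5.71 in TalaR-DF cells, and rose by 0.87 ± 0.14 (0.76 without TalaR-M replicate 2) and 0.66 ± 0.14 (adjusted p = 0.00264 and 0.0118 from limma). RPA3 was at 4.96, 4.92 and 5.23, then 5.47, 7.24 and 5.06, then 5.45, 5.31 and 5.36 in the same order. Its log2 fold change in TalaR-M cells was 0.89 with all libraries and 0.23 without replicate 2, and passed with neither. RPA1, the large subunit, had values of -0.45 ± 0.26 and 0.08 ± 0.26 and did not pass in either fit. FEN1, the flap endonuclease, was at 5.98, 5.94 and 5.90, then 6.92, 7.66 and 6.80, then 6.89, 6.84 and 6.80. FEN1 rose 2.28-fold (adjusted p = 0.005 from limma; 1.90-fold without TalaR-M replicate 2) and 1.87-fold (adjusted p = 0.0208). LIG1, the ligase that seals Okazaki fragments, rose without TalaR-M replicate 2 only, by 0.22 and 0.36 (adjusted p = 0.0184 and 0.000343 from limma).

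Of the 3 genes of nucleotide supply, TYMS and RRM2 rose in TalaR-M cells, and TYMS was also higher there than in TalaR-DF cells. TYMS, which makes thymidylate, was at 4.51, 4.61 and 4.64 log2 CPM in parental cells, 5.89, 6.34 and 5.63 in TalaR-M cells and 5.18, 5.04 and 5.35 in TalaR-DF cells. The groups did not overlap. TYMS rose 2.59-fold in TalaR-M cells (1.37 ± 0.19, adjusted p = 0.00142 from limma; 1.18 without replicate 2), had a log2 fold change of 0.61 ± 0.19 in TalaR-DF cells (adjusted p = 0.0656; adjusted p = 0.000177 without TalaR-M replicate 2) and was higher in TalaR-M than in TalaR-DF cells by 0.76 (adjusted p = 0.0385; 0.57, adjusted p = 0.00104 without replicate 2). RRM2, the regulated subunit of ribonucleotide reductase, was at 7.02, 6.96 and 6.95, then 8.15, 7.36 and 7.91, then 7.63, 7.53 and 7.62 in the same order. It rose by 0.83 ± 0.20 in TalaR-M cells (adjusted p = 0.0171 from limma; 1.06 without replicate 2) and had 0.62 ± 0.20 in TalaR-DF cells (adjusted p = 0.0641). It was higher in TalaR-M than in TalaR-DF cells without TalaR-M replicate 2 (0.44, adjusted p = 0.000501 from limma) and did not pass with it (0.21, adjusted p = 0.449). RRM1, the large subunit, rose without TalaR-M replicate 2 by 0.20 and 0.27.

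Between the resistant populations themselves, few genes passed. With all 9 libraries 2 of 49 genes (4.08%) were higher in TalaR-M cells (TYMS and E2F2), against 7.79% of all genes, and 2 were lower (MCM2 and MCM3), against 4.25% of all genes. At 2-fold or more, 0 replication genes were higher, against 5.29% of all genes. At an unadjusted p under 0.05 from limma, 3 were higher and 6 lower, beside 1845 and 1873 of all 12471 genes. The median log2 fold change was -0.24, against -0.09 for all genes. Without TalaR-M replicate 2 it was -0.15 against -0.02, with 4 genes higher (TYMS, E2F2, RRM2 and POLA2) against 23.5% of all genes and 17 lower (34.7%) against 25.3% of all genes. Besides the MCM2-7 genes named above, those lower in TalaR-M cells were MCM10, ORC4, ORC5, CDT1, CDC45, POLA1, POLD2, POLD3, POLE2, RFC4, RFC5 and RPA1. Leaving out any 1 parental or TalaR-DF library left 0 or 1 gene between the resistant populations, and leaving out TalaR-M replicate 1 or 3 left 4 and 3.

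Genes that act with the 49 were counted from 5 lists, and each gene named from them as having passed also passed, in the same direction, without TalaR-M replicate 2. Beside these counts, 10.3% of all tested genes rose and 13.2% fell in TalaR-M cells (30.2% and 30.0% without TalaR-M replicate 2), and 6.77% rose and 11.8% fell in TalaR-DF cells (32.5% and 30.4%). Of 21 genes of origin firing and licensing control, 2 rose and 1 fell in TalaR-M cells (10 and 2 without TalaR-M replicate 2). The share that rose there with all 9 libraries was near that of all genes. In TalaR-DF cells, 4 of the 21 rose and 0 fell (18 and 1). At an unadjusted p under 0.05 from limma, 7 were higher and 0 lower in TalaR-DF cells, beside 1590 and 2079 of all 12471 genes. DONSON, a factor for helicase assembly, and CCNE1, the gene of cyclin E1, rose in TalaR-M cells by 1.02 and 0.65 (adjusted p = 0.00612 and 0.00885 from limma). Both also rose in TalaR-DF cells, each by 0.74 (adjusted p = 0.0304 and 0.00559 from limma). CUL4A, a scaffold of the ubiquitin ligase that removes CDT1, was at 6.87, 6.80 and 6.87 log2 CPM in parental cells, 6.22, 5.19 and 6.18 in TalaR-M cells and 7.04, 6.98 and 7.02 in TalaR-DF cells. CUL4A fell by 0.98 in TalaR-M cells (adjusted p = 0.0266 from limma; -0.65 without replicate 2) and was lower there than in TalaR-DF cells (-1.15, adjusted p = 0.0242). SKP2, the substrate receptor of the other ligase for CDT1, and MCMBP, a binding partner of MCM proteins, rose in TalaR-DF cells by 0.78 and 1.03 (limma adjusted p = 0.0198 and 0.0405). SKP2 was also lower in TalaR-M than in TalaR-DF cells (-0.81, adjusted p = 0.0249).

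Of 29 fork partners and replication-coupled chromatin factors, beside 10.3% and 6.77% of all genes rising, 7 rose and 0 fell in TalaR-M cells (22 and 2 without TalaR-M replicate 2). At an unadjusted p under 0.05 from limma, 11 were higher and 1 lower in TalaR-M cells, beside 2073 and 2616 of all 12471 genes. In TalaR-DF cells 6 rose and 1 fell (25 and 2). CHAF1B, a subunit of the chromatin assembly factor that follows PCNA, rose in both (0.91 and 1.10, adjusted p = 0.00327 and 0.00146 from limma). TIPIN of the fork protection complex rose in TalaR-DF cells by 0.91 (adjusted p = 0.00255 from limma). POLE4 rose by 1.80 in TalaR-M cells, where TalaR-M replicate 2 was at 7.59 log2 CPM and replicates 1 and 3 at 5.68 and 5.53, and by 1.14 without replicate 2. POLD4, the small subunit of polymerase delta, fell by 1.18 in TalaR-DF cells (adjusted p = 0.0116 from limma). ASF1B, a histone chaperone, rose in TalaR-M cells by 0.84 (adjusted p = 0.00164 from limma). It was also higher in TalaR-M than in TalaR-DF cells by 0.58 (adjusted p = 0.0199 from limma).

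Of 21 further genes of nucleotide supply, beside the same shares of all genes, 3 rose and 2 fell in TalaR-M cells (12 and 2 without TalaR-M replicate 2), and 4 rose and 2 fell in TalaR-DF cells (15 and 2). The 2 that fell were TYMP and SHMT2. TYMP, which breaks thymidine down, was at 4.78, 4.79 and 4.82 log2 CPM in parental cells, 1.46, 3.62 and 2.23 in TalaR-M cells and 1.60, 1.35 and 1.76 in TalaR-DF cells, with log2 fold changes of -2.36 (-2.95 without TalaR-M replicate 2) and -3.22 (adjusted p = 0.00775 and 0.00193 from limma). SHMT2, a mitochondrial enzyme of one-carbon metabolism, fell less (log2 fold changes -1.21 and -0.81, with limma adjusted p = 0.000963 and 0.00888). DTYMK and SAMHD1 rose in TalaR-M cells by 1.38 and 0.72, DTYMK by 0.81 without TalaR-M replicate 2. SLC29A1, a nucleoside transporter, rose in TalaR-DF cells by 0.93 and in TalaR-M cells by 0.47 (adjusted p = 0.00222 and 0.0416 from limma). MTHFD1 rose in TalaR-DF cells by 0.74. GMPS rose in TalaR-DF cells by 0.49 (adjusted p = 0.0366 from limma) and was lower in TalaR-M than in TalaR-DF cells (-0.50, adjusted p = 0.0479).

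Of 26 tested genes that regulate E2F and RB (27 listed), beside the same shares, 4 rose and 1 fell in TalaR-M cells (12 and 5 without TalaR-M replicate 2), and 5 rose and 3 fell in TalaR-DF cells (16 and 7). CDKN2C, an inhibitor of the kinases CDK4 and CDK6, was at 0.13, 0.79 and 0.60 log2 CPM in parental cells, 4.89, 4.73 and 4.64 in TalaR-M cells and 2.46, 2.33 and 2.42 in TalaR-DF cells. The groups did not overlap. CDKN2C rose by 4.25 in TalaR-M and by 1.90 in TalaR-DF cells (adjusted p = 2.02e-06 and 0.000234 from limma) and was higher in TalaR-M than in TalaR-DF cells by 2.35 (adjusted p = 0.000164). Its parental values lay near 0, the lowest value possible, and rest on few reads, so the sizes of its rises are imprecise. E2F8, a repressor of the E2F family, rose by 2.17 and 2.54 (adjusted p = 0.0405 and 0.0255 from limma), TalaR-M replicate 2 being at 1.87 log2 CPM and replicates 1 and 3 at 4.69 and 4.32, and the first value being 3.04 without replicate 2. CDKN2B fell in TalaR-M cells (-1.20, or -0.83 without TalaR-M replicate 2) and in TalaR-DF cells (-0.98, adjusted p = 0.0468 from limma). CDKN1A and CDKN1C, which encode the CDK inhibitors p21 and p57, fell in TalaR-DF cells (-1.85 and -1.59, adjusted p = 0.000999 and 0.00968 from limma). CDKN1A was at 0.67, 0.22 and 0.79 log2 CPM in TalaR-DF cells, also near the lowest value possible. CDKN1C was higher in TalaR-M than in TalaR-DF cells by 2.01 (1.62 without replicate 2), whereas MYC and E2F4 were lower (-1.70 and -0.52, adjusted p = 0.00212 and 0.0241 from limma). Against parental cells, MYC and E2F4 rose in TalaR-DF cells by 1.09 and 0.84 (adjusted p = 0.0107 and 0.00157 from limma). In TalaR-M cells neither passed with all 9 libraries (-0.60 and 0.32), and without replicate 2 MYC fell (-0.34) and E2F4 rose (0.31).

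Some genes of G2 and mitosis also rose against parental cells. Of 30, beside 10.3% and 6.77% of all genes, 7 rose and 0 fell in TalaR-M cells (26 and 0 without TalaR-M replicate 2), and 6 rose and 0 fell in TalaR-DF cells (28 and 0). Of all 12471 tested genes, 2073 and 1590 were higher and 2616 and 2079 lower at an unadjusted p under 0.05 from limma with all 9 libraries. Of the 30 genes of G2 and mitosis, 11 and 10 were higher and 0 lower at that threshold. Their median log2 fold change was 0.23 in TalaR-M cells (0.63 without replicate 2) and 0.61 in TalaR-DF cells, where all 30 were above 0, beside 0.39 (0.45) and 0.59 for the replication genes. Between TalaR-M and TalaR-DF cells 0 of these 30 were higher and 1 lower, beside 7.79% and 4.25% of all genes. Without TalaR-M replicate 2, 8 were higher and 4 lower, beside 23.5% and 25.3% of all genes. The median of the 30 was -0.26 (0.04 without replicate 2), beside -0.24 (-0.15) for the replication genes. MKI67, a marker of cycling cells, had a log2 fold change of 0.80 in TalaR-M cells (adjusted p = 0.0971 from limma; 1.20, adjusted p = 4.38e-07 without replicate 2) and rose by 1.10 in TalaR-DF cells (adjusted p = 0.0405). CDK1, the mitotic kinase, rose by 0.71 and 0.98 (adjusted p = 0.00943 and 0.00229 from limma). BIRC5 and TACC3 rose in TalaR-M cells by 1.04 and 1.11 (0.66 and 0.71 without replicate 2), and PLK1 was lower in TalaR-M than in TalaR-DF cells (-0.66, adjusted p = 0.0126 from limma). Against parental cells, PLK1 rose in TalaR-DF cells by 0.68 (adjusted p = 0.00684 from limma) and did not pass in TalaR-M cells (0.02, adjusted p = 0.926). The part of the share of cycling cells in the values of the replication genes was not tested.

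By annotation (GENCODE 44), 11 of the 49 genes have pseudogenes named after them, among them PCNA, RPA2, RPA3, RRM2, TYMS and FEN1. Another protein-coding gene overlaps 15 of the 49. The overlap is on the same strand for POLA2 (by ENSG00000285816), FEN1 (by FADS2), MCM8, PRIM1 and POLD1. Overlaps on the opposite strand include those of GINS2 (by GSE1) and TYMS (by ENOSF1). How reads shared with such genes were counted is not given in the sources used here, and the values of these genes are uncertain to that extent.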

How the data were processed

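PSN1 RNAseq of 3 groups (parental, TalaR-M, TalaR-DF) with 3 replicates each was used. Libraries were stranded and poly(A)-selected, with paired 150-base reads. The deposited log2 values cover 20241 genes, and their steps show them to be log2 CPM with a prior count of 1 and values under 0 set to 0. Submitters' notes name the build hg38, and the aligner, counting method and annotation are not given in the sources used here. The test had been planned for values with or without a log. Whole reads recovered from the values (all values under 50 CPM came out whole, tolerance 0.1 read) served only to give depth, with 1 CPM standing for between 6.97 and 14.54 reads.

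The 12471 genes that exceeded 1 CPM in 3 or more libraries were fitted with limma 3.58.1 in R 4.3.3, in 1 model of the 3 groups with moderated tests, a mean-variance trend and Benjamini-Hochberg adjustment over all genes. The study's volcano plots were made on the Data4Cure platform and its general statistics used a two-tailed comparison of means; limma was used here instead, because it shares the estimate of the spread across genes. The limma fit was tried on simulated data for TalaR-DF vs parental only, with the same spread set for every library. TalaR-M replicate 2 differed there only by its lower depth, so that trial does not show how the fit handles its deviation by length. No test was made on the list as a whole. Members, roles and lists were chosen with earlier results of these data known. Genes with values in every library are those past the threshold with a 2-fold change, the 3 highest and 3 lowest of the passing genes per comparison, the largest change per role, and 10 textbook genes. From each other list, up to 2 passing genes at each end per comparison are named. Transcript lengths are those of GENCODE 44 (matched by symbol for 93.9% of tested genes), and levels between genes are compared per kb of them. Promoters came from RefSeq, and plots were made in Python 3.11.15 (matplotlib 3.10.9). Alternatives were other pseudocounts, filters, scalings, weights, samples and covariates, and are given in the closing section. Other samples of the series (39 of 48) were not analysed here.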

Additional observations from a re-analysis of the deposited data

How the results depend on the processing

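With 3 libraries per group, and 1 of them unlike the others, the number of genes past the threshold depended on how the spread was estimated, while the median of the replication genes against parental cells stayed above 0 under every alternative tried. As reported, 17, 17 and 4 replication genes passed (TalaR-M vs parental, TalaR-DF vs parental, TalaR-M vs TalaR-DF), of 2938, 2315 and 1502 genes in all. With limma array weights, which gave TalaR-M replicate 2 a weight of 0.0133, these were 35, 45 and 18, of 7430, 8150 and 5439. With only the 2 groups compared in the fit, 45 of 7755 passed for TalaR-DF vs parental and 0 of 591 for TalaR-M vs TalaR-DF (2 replication genes higher and 2 lower at an unadjusted p under 0.05 from limma), and 1724 genes in all for TalaR-M vs parental. At 2-fold or more, 8 of 1653, 5 of 1214 and 0 of 864 passed. With the dependence on length and GC content taken out, 34 of 4119 passed for TalaR-DF vs parental, 14 of 3585 for TalaR-M vs TalaR-DF, and 4850 in all for TalaR-M vs parental. Median-ratio scaling moved the median of all genes from -0.09 to 0.01 for TalaR-M vs parental, and that of the replication genes for TalaR-M vs TalaR-DF from -0.24 to -0.09.

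The correlations of deviations from the group mean ran from -0.31 to 0.16 between same-numbered libraries and from -0.40 to 0.37 between differently numbered ones. Because TalaR-M replicate 2 enters the mean of its group, these values cannot settle whether replicate numbers pair the samples. A fit with the replicate block left 1 replication gene of 999 for TalaR-M vs TalaR-DF. Leaving out 1 library in turn gave 13 to 36 replication genes (1801 to 7506 in all; median 0.18 to 0.45), 9 to 45 (1406 to 7850; median 0.53 to 0.61) and 0 to 21 (724 to 6084; median -0.26 to -0.15) for the 3 comparisons, the highest being without TalaR-M replicate 2.

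Over all alternatives, the 66 values of single genes kept their direction and their side of the threshold in 1077 cases, lost the call in 102 and gained it in 54. Signs turned for 10 values that did not pass in the fit as reported. Between TalaR-M and TalaR-DF these were CDT1 (-0.42 with array weights, -0.23 with the length and GC trend removed, -0.41 to 0.36 when leaving out 1 library), GINS2 (-0.17 with array weights, -0.16 to 0.48), PCNA (-0.02 and -0.14 likewise, -0.07 to 0.07), RPA3 (-0.14 with array weights, -0.11 to 0.98), GMNN (0.12 with median-ratio scaling, -0.20 to 0.10), CDC45 (0.07 with that scaling) and CDC6 (-0.05 to 0.16). Against parental cells they were MCM2 (0.05 with array weights, -0.31 to 0.06), MCM10 (-0.02 to 0.64) and RFC3 (-0.05 to 0.72) in TalaR-M cells. CDT1 between TalaR-M and TalaR-DF passed with its sign turned in the fit without TalaR-M replicate 2 (-0.41, adjusted p = 0.00579 from limma). The cause of the turned signs was not tested. GINS4 with 19 reads in TalaR-M replicate 2 is the least precise value at this depth.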
